A study of Mus musculus with 12 samples.

Results

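The genes described here are 41 complement and coagulation factors, the plasma proteins that kill microbes and clot blood. They are the rows of the deposited table of 27912 genes whose symbol equals one of 41 listed names: 20 complement genes and 21 coagulation genes, every one of which was found. The study fed a diet high in fat and cholesterol with cholate, labelled CL, to male mice for 12 weeks from an age of 8 weeks, and measured liver RNA by sequencing. The control group (WT) is labelled as wild-type C57BL/6, replicates 62, 63 and 64. The other group (CCR1-KO) is labelled as CCR1 knockout, replicates 65, 66 and 67; CCR1 is a chemokine receptor found mainly on leukocytes. Both groups ate the CL diet and each library is labelled with its own animal number. The labels give neither the extent of the deletion nor its genetic background or whether the groups were littermates, so the knockout and any difference in background cannot be told apart. The series has 12 samples in 4 groups of 3; the 6 samples of the other two groups were not analysed here, and no chow-fed liver was either.

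Hepatocytes make most complement and clotting proteins and secrete them into plasma as inactive precursors. Complement starts by the classical route (antibody, C1, C4 and C2), the lectin route (mannose-binding lectins and their MASP proteases) or the alternative route (C3, factor B and properdin). All routes cleave C3 and then C5, and the C5 fragment assembles C6, C7, C8 and C9 into a pore, the membrane attack complex. Clotting factors are mostly proteases that activate each other up to thrombin, which turns fibrinogen into fibrin. Serpins and the protein C system hold them back, and plasmin dissolves the clot.

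The libraries held between 74699391 and 79154085 counted reads, and a member had at least 564 reads in every library. Ccr1 (chromosome 9, 123962124 to 123968692) had 100, 23 and 123 reads in WT replicates 62, 63 and 64 and 11, 4 and 14 in CCR1-KO replicates 65, 66 and 67. Its log2 fold change was -2.72 ± 0.76 (SE) and missed the threshold (edgeR quasi-likelihood test, Benjamini-Hochberg adjusted p = 0.0755). The libraries differ in composition: Mup transcripts, which encode major urinary proteins, took 0.927% to 1.05% of reads in WT and 3.36%, 12.2% and 15.8% in CCR1-KO replicates 65, 66 and 67. CPM values below are read counts relative to the library total after TMM scaling, a factor per library that centres the bulk of genes; the factors were 1.06, 1.12 and 1.17 in WT and 1.06, 0.874 and 0.779 in CCR1-KO. One read was worth 0.0113 to 0.0167 CPM. The liver identity of the samples was plain, with 9 hepatocyte markers summing to 78659 to 94858 CPM in WT and 79475 to 99611 CPM in CCR1-KO. In whole liver, a lower level can mean fewer cells of a type or less RNA per cell, and these cannot be told apart.

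Of the 41 members, 4 were higher in CCR1-KO livers and 0 were lower. The 4 were C6, C8a and C8b of the membrane attack complex, and F7, the protease that starts clotting with tissue factor. All 41 passed the filter on low counts. Against 17729 genes tested, 2.83% were called higher and 3.61% lower at an adjusted p under 0.05, either direction together 6.44%. The 4 members are 4 of 41 tested; 37 did not pass. In edgeR 0 members were lower at an unadjusted p under 0.05 as well. At an adjusted p under 0.05, 0 were lower with DESeq2 and with limma on FPKM, where 8.73% and 8.7% of all genes were called lower. An unadjusted p under 0.05 with a higher level was found for 17 members, where 11.3% of all genes had one. On the scales without TMM (edgeR without scaling factors, limma on filtered FPKM) 5 were higher at that level, and 1 and 2 were lower. The share of all genes at that level was not computed for those scales. There the median log2 fold change of all genes was -0.30 without scaling factors and -0.23 and -0.27 with limma at pseudocounts of 0.5 and 0.1.

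The members leaned upward on the TMM scale. Their median log2 fold change was 0.29, against 0.0017 for all genes tested, and 34 of 41 had a value above 0, as did 50.1% of all genes. The 35 members other than terminal had a median of 0.24. The 9 hepatocyte markers tested also had a median of 0.24, with 6 above 0 and 3 below. The 16 acute phase genes had -0.06, with 7 above 0 and 9 below. Whether the lean is particular to the members was not tested. In 23 members every CCR1-KO library was above every WT library, in 0 the reverse, and in 18 the groups overlapped. Among all genes 15.2% were separated upward and 17.4% downward. How many members are separated depends on the scale, which shifts all genes together: with library totals only, 9 members were separated upward (Hc, C6, C8a, C8b, C9, F7, F11, Klkb1 and Proc) and 4 downward (Masp1, F5, F13b and Pros1), against 4.72% and 28.4% of all genes. Without scaling factors the members' median was -0.0096 and that of all genes -0.30, with 20 of 41 members above 0 and 24.3% of all genes. The members' median thus lay above that of all genes by 0.29 on both scales. The 14 members whose sign turned without scaling factors were C4b, Cfb, F2, F5, F9, Fga, Kng1, Kng2, Masp2, Mbl1, Mbl2, Serpinc1, Serpind1 and Serpinf2.

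**Figure D1:**
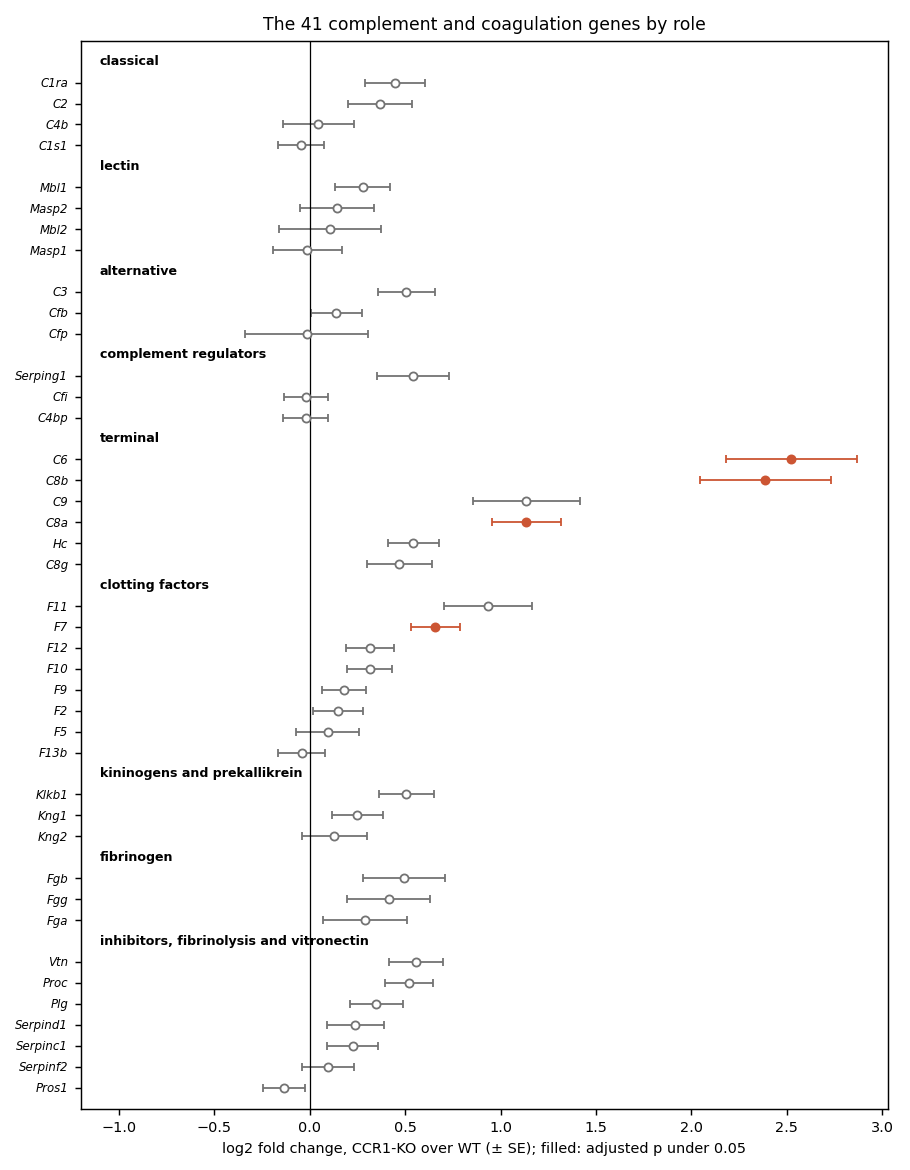
Log2 fold change of each of the 41 members, CCR1-KO over WT, in blocks by role, with SE bars (3 against 3 livers); filled points have an adjusted p under 0.05. C6 at 2.52 and C8b at 2.39 lie farthest to the right, and no member lies below Pros1 at -0.13.

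The role that stood highest was the terminal pathway: 3 of its 6 members were called higher, with a median log2 fold change of 1.13. In all 6 the CCR1-KO libraries lay above the WT libraries, and all 6 had an unadjusted p under 0.05. With library totals only, all but C8g stayed separated. The other 14 complement members had a median of 0.12 with 0 called higher and 0 lower, and the 21 coagulation members had a median of 0.29 with 1 called higher. Medians of lists are given as descriptions and were not tested against each other.

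The upstream sequences of the 4 genes that passed are shown because they are the control regions next to the transcripts that differ. They are RefSeq sequences of build GRCm38.p6, 5′ to 3′ on the gene's strand, up to the base before transcription starts (for C6, the earlier start in the deposited table). Searched on both strands, in capitals where found, were GTTAAT (HNF1-type), GNNCAAAG (HNF4-type), TTGCNNAA (C/EBP-type) and TTCNNNGAA (STAT-type), letters bound by factors active in hepatocytes; no matches overlapped. C6 lies on chr15:4726960-4727174, plus strand, C8a on chr4:104876399-104876648, minus strand, C8b on chr4:104766067-104766316, plus strand, and F7 on chr8:13025784-13026033, plus strand.
C6: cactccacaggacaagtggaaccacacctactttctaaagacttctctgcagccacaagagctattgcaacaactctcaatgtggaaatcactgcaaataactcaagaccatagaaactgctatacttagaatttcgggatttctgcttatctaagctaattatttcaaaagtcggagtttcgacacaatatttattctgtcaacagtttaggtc
C8a: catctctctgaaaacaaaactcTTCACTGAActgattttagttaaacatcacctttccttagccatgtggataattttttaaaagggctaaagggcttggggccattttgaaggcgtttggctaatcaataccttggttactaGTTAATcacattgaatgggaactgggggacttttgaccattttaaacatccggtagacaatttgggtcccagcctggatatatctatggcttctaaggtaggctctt
C8b: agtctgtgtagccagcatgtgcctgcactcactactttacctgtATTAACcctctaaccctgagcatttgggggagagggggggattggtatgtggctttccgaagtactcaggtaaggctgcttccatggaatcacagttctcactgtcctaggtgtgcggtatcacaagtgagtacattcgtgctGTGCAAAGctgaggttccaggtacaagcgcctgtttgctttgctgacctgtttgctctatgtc
F7: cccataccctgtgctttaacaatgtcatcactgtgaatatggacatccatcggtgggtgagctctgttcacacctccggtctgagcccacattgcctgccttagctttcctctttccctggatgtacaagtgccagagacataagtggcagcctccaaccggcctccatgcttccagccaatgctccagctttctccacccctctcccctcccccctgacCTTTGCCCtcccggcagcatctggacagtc
The C8a window holds a STAT-type match (TTCACTGAA) and an HNF1-type match (GTTAAT). The C8b window holds an HNF1-type match on the other strand (ATTAAC) and an HNF4-type match (GTGCAAAG). F7 holds an HNF4-type match on the other strand (CTTTGCCC), and the C6 window holds none of the 4 motifs. Of 32 members with an entry in the promoter table, the HNF1-type letters stood within 250 bases of the start in 31.2% and in 6.52% of 27025 genes. The HNF4-type letters stood in 34.4% of members and 15.0% of genes, the C/EBP-type in 28.1% and 9.55%, and the STAT-type in 18.8% and 7.18%. No C/EBP-type match was found in the 4 windows.

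C6 (chromosome 15, 4727175 to 4814967, build GRCm38), which binds the C5 fragment and begins the pore, was the member with the largest difference. It stood at 52.1, 50.3 and 50.3 CPM in WT and at 141, 376 and 362 CPM in CCR1-KO. The WT livers were almost level, and CCR1-KO replicate 65 was far below the other two knockouts while still above every WT liver. The means were 50.9 ± 1.02 and 293 ± 132 CPM (SD, n = 3 each), a log2 fold change of 2.52 ± 0.35 (edgeR, adjusted p = 0.0117).

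C8 has 3 chains from separate genes: alpha and beta form part of the pore, and gamma, a lipocalin, is joined to alpha. C8b (chromosome 4, 104766317 to 104804548) stood at 70.7, 66.2 and 51.1 CPM in WT and at 167, 385 and 432 CPM in CCR1-KO, a log2 fold change of 2.39 ± 0.34 (edgeR, adjusted p = 0.0127). C8a (chromosome 4, 104815679 to 104876395) stood at 321, 287 and 310.0 CPM in WT and at 516, 685 and 813 CPM in CCR1-KO, a log2 fold change of 1.13 ± 0.18 (edgeR, adjusted p = 0.0173). Replicate 65 was again the lowest knockout for both chains. The genes of these chains are neighbours that end toward each other, 11.1 kb apart. C8g (chromosome 2, 25498651 to 25501719) stood at 156, 222 and 208 CPM in WT and at 290.4, 289 and 231 CPM in CCR1-KO. Here replicate 65 was the highest knockout, replicate 67 the lowest, and the log2 fold change of 0.47 ± 0.17 missed the threshold (edgeR, adjusted p = 0.145).

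C9, the chain that polymerises into the ring of the pore, stood at 229, 174 and 246 CPM in WT and at 292, 501 and 633 CPM in CCR1-KO. Its log2 fold change of 1.14 ± 0.28 was as large as that of C8a, with a wider error, and missed the threshold (edgeR, adjusted p = 0.0539). Hc, the mouse gene for C5, stood at 647, 577 and 649.7 CPM in WT and at 825, 927 and 978 CPM in CCR1-KO, a log2 fold change of 0.54 ± 0.13 (edgeR, adjusted p = 0.0553). C7, the pore component that is no member of the list and is made largely by other cells, was low. It stood at 0.571, 0.610 and 1.32 CPM in WT and 0.838, 0.536 and 0.502 CPM in CCR1-KO, with 30 to 116 reads in a library. The C7 groups overlapped (log2 fold change -0.41 ± 0.46; edgeR, adjusted p = 0.635).

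**Figure D2:**
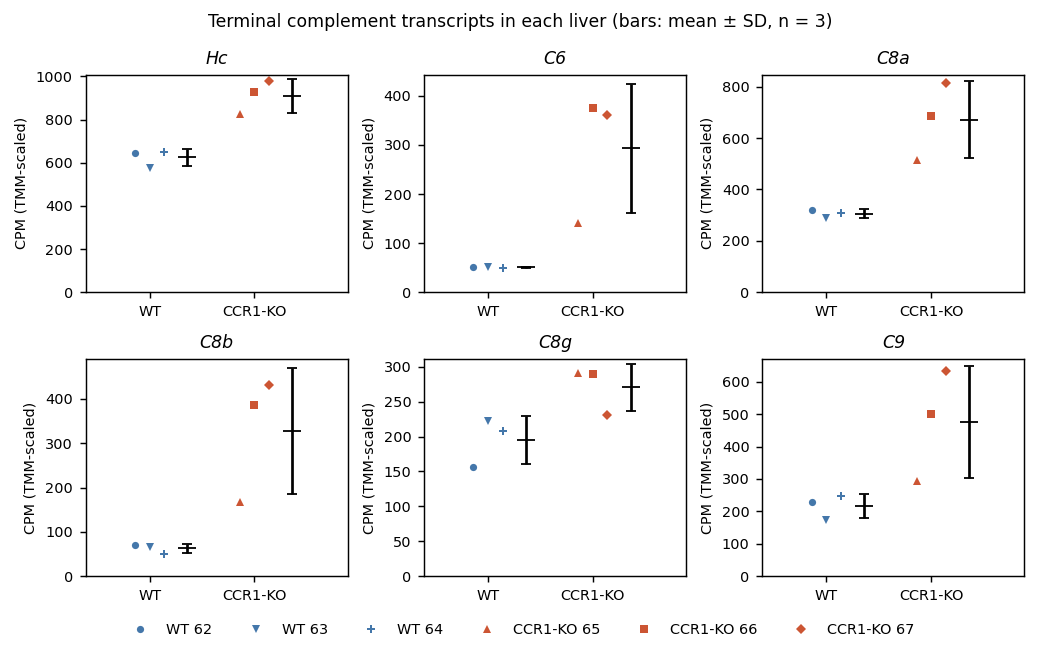
TMM-scaled CPM of the 6 terminal complement members in each liver, with a marker shape per replicate, bars for the mean ± SD (n = 3) and axes from 0. C6 and C8b stand at 50.3 to 70.7 CPM in WT and at 141 CPM or more in CCR1-KO, and replicate 65 is the lowest knockout in C6, C8a, C8b, C9 and Hc but the highest in C8g.

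The calls for C6, C8a and C8b were kept without scaling factors, with DESeq2 and in the limma fits on FPKM, at log2 fold changes down to 2.05, 0.80 and 1.96. With any 1 WT library left out 0 members passed in edgeR (smallest adjusted p 0.0563, for C8b without replicate 62), while the log2 fold changes of C6 stayed between 2.51 and 2.54. At the adjusted threshold 0.447%, 0.197% and 0.312% of all genes were called higher without WT replicates 62, 63 and 64. At an unadjusted p under 0.05 these fits had 12 to 14 members higher. The share of all genes at that unadjusted level was not computed for them. Leaving out CCR1-KO replicate 65 gave 11 members called higher (C3, C6, C8a, C8b, C9, F11, F7, Hc, Klkb1, Proc and Vtn), with 5.5% of all genes. Leaving out replicate 66 gave 2 (C6 and C8b; 0.796% of all genes), and leaving out replicate 67 gave 3 (C6, C8a and C8b; 0.947%). Across tools, DESeq2 called 14 members higher (7.55% of all genes): C3, C6, C8a, C8b, C9, F7, F10, F11, Hc, Klkb1, Plg, Proc, Serping1 and Vtn. Median-ratio factors gave 5, with Proc added (2.94%). The fit without scaling factors gave 3 (1.24%), that without the count filter 4 (1.12%), and limma on FPKM 3 with pseudocounts of 0.5 (1.78%) and 0.1 (1.74%) and 3 without the FPKM filter (0.244%).

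Of the 11 members that start complement 0 passed the edgeR test; C1ra and C3 had an unadjusted p under 0.05, and DESeq2 called C3 higher. In the classical route C4b, the most abundant of its 4 members per length, stood at 1410.1, 1401 and 1756 CPM in WT and at 1806, 1666 and 1239.6 CPM in CCR1-KO. The groups overlapped, and the log2 fold change was 0.04 ± 0.19 (edgeR, adjusted p = 0.910). C1ra, the first protease of the C1 complex, had the smallest p of the route. It stood at 215, 186 and 186 CPM in WT and at 226, 255 and 318 CPM in CCR1-KO, separated by a narrow gap (log2 fold change 0.44 ± 0.16; edgeR, adjusted p = 0.136). With library totals only, the C1ra groups overlapped. C1s1, its partner protease, and C2, the protease of the C3 convertase, overlapped between groups, with log2 fold changes of -0.05 and 0.37.

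In the lectin route Mbl2, a mannose-binding lectin, stood at 392, 339 and 329 CPM in WT and at 553, 257 and 330.3 CPM in CCR1-KO. The knockouts spanned the whole WT range (log2 fold change 0.11 ± 0.27; edgeR, adjusted p = 0.847). The other lectin, Mbl1, stood at 132, 166 and 158 CPM in WT and at 209, 174 and 170.4 CPM in CCR1-KO. Its groups were apart by a few CPM (log2 fold change 0.28 ± 0.14; edgeR, adjusted p = 0.275), and without scaling factors its log2 fold change was -0.0096. The MASP proteases that the lectins activate overlapped, with log2 fold changes of -0.01 for Masp1 and 0.14 for Masp2.

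In the alternative route C3, the protein all routes cleave, was the most abundant complement member. It stood at 4628, 4563 and 5248 CPM in WT and at 6272, 6926 and 7318 CPM in CCR1-KO. All 3 knockouts were above the WT livers on the TMM scale, and the log2 fold change of 0.51 ± 0.15 missed the threshold (edgeR, adjusted p = 0.0896). With library totals only, the C3 groups overlapped. Cfb, the convertase protease of this route, stood at 1062 ± 94.5 CPM in WT and 1169.5 ± 52.6 CPM in CCR1-KO with overlapping groups. Properdin (Cfp), which stabilises the convertase and comes mainly from leukocytes, was the least abundant member and had a log2 fold change of -0.02.

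The regulators showed the same split between one separated gene and level ones. Serping1, the C1 inhibitor, stood at 691, 458 and 499 CPM in WT and at 721, 771 and 903 CPM in CCR1-KO. The groups did not overlap on the TMM scale, but WT replicate 62 lay close to knockout 65 (log2 fold change 0.54 ± 0.19; edgeR, adjusted p = 0.133; called higher by DESeq2). With library totals only, the Serping1 groups overlapped. C4bp and Cfi, which together inactivate C4b and, with factor H, C3b, were level: C4bp stood at 551 ± 16.4 CPM in WT and 543 ± 16.3 CPM in CCR1-KO, and Cfi at 521 ± 17.5 and 514 ± 14.6 CPM.

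Among 8 clotting factors 1 passed, and 6 were separated upward on the TMM scale, where 15.2% of all genes were. With library totals only, F7 and F11 were separated upward and F5 and F13b downward, against 4.72% and 28.4% of all genes. F7 (chromosome 8, 13026034 to 13035809) stood at 51.3, 59.4 and 59.4 CPM in WT and at 79.3, 95.0 and 94.2 CPM in CCR1-KO. On this TMM scale the highest WT liver was well below the lowest knockout, and the log2 fold change was 0.66 ± 0.13 (edgeR, adjusted p = 0.0275). As FPKM, without a TMM factor, the gap was narrower. The WT livers stood at 26.72, 32.55 and 34.02 FPKM and the knockouts at 41.15, 40.79 and 36.22. The call was lost in 9 of 13 alternatives, among them the fit without scaling factors, where the log2 fold change was 0.34 (adjusted p = 0.227). F10, which F7 activates and which lies 1498 bases beyond it on the chromosome, stood at 287 ± 14.6 CPM in WT and 357 ± 18.3 CPM in CCR1-KO, separated but not past the threshold (log2 fold change 0.31 ± 0.12; edgeR, adjusted p = 0.155).

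F11, a protease of the intrinsic route, stood at 40.2, 43.6 and 38.0 CPM in WT and at 56.8, 68.0 and 108 CPM in CCR1-KO. Replicate 67 was the highest, and the log2 fold change of 0.93 ± 0.23, the largest among coagulation members, missed the threshold (edgeR, adjusted p = 0.0531). Prothrombin (F2), the most abundant clotting protease per length, stood at 1604, 1600.1 and 1579 CPM in WT and at 1676, 1737 and 1892 CPM in CCR1-KO. Its separation on this scale was small (log2 fold change 0.15 ± 0.13; edgeR, adjusted p = 0.527) and its sign turned without scaling factors, at -0.16. F12, which starts the contact route, and F9, the haemophilia B factor, were also separated upward on the TMM scale. Their log2 fold changes were 0.32 and 0.18, with no call. F5, the cofactor of F10, and F13b, the carrier chain of the enzyme that crosslinks fibrin, overlapped on that scale. Their log2 fold changes were 0.09 and -0.04, and with library totals only both were separated downward.

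The 3 contact members gave 0 calls in edgeR, with Klkb1 at an unadjusted p under 0.05 and called higher by DESeq2. Kng1, a kininogen that carries bradykinin, stood at 1465, 1575 and 1389 CPM in WT and at 1679, 1821 and 1762 CPM in CCR1-KO (log2 fold change 0.25 ± 0.13; edgeR, adjusted p = 0.292). Its sign also turned without scaling factors, at -0.054. Klkb1, the prekallikrein that cuts kininogen, stood at 228, 259 and 228 CPM in WT and at 285, 356 and 375 CPM in CCR1-KO, separated with a log2 fold change of 0.51 ± 0.15 (edgeR, adjusted p = 0.0815). Kng2, the second mouse kininogen, overlapped, with a log2 fold change of 0.13.

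Fibrinogen is built from 3 chains, and all were high in both groups. Fgg, the gamma chain, stood at 2213, 2223 and 2885 CPM in WT and at 3062, 4142 and 2549 CPM in CCR1-KO. Knockout 66 was the highest liver and knockout 67 lay among the WT livers (log2 fold change 0.41 ± 0.22; edgeR, adjusted p = 0.283). Fgb, the beta chain, stood at 2838, 2604 and 3216 CPM in WT and at 3483, 5344 and 3373 CPM in CCR1-KO, barely apart (log2 fold change 0.49 ± 0.21; edgeR, adjusted p = 0.205). With library totals only, the Fgb groups overlapped. Fga, the alpha chain, overlapped, with a log2 fold change of 0.29 ± 0.22, and peaked in knockout 66 like the other two. The fibrinogen chains held 22.2% to 31.6% of all members' reads in a library.

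Among the inhibitors, plasminogen and vitronectin, 7 members in all, 0 passed in edgeR and 4 were separated upward on the TMM scale (15.2% of all genes). With library totals only, Proc alone was separated upward and Pros1 downward (4.72% and 28.4% of all genes). An unadjusted p under 0.05 was found for 3, and DESeq2 called Plg, Proc and Vtn higher. Proc, the anticoagulant protein C, came nearest: 332, 325 and 300.0 CPM in WT and 417, 475 and 481 CPM in CCR1-KO. On this TMM scale the groups were well apart (log2 fold change 0.52 ± 0.12, edgeR, adjusted p = 0.0504). As FPKM, without a TMM factor, the highest WT liver had 133.68 and the lowest knockout 138.8. Proc passed with median-ratio factors, with DESeq2 and without knockout 65. Vtn, vitronectin, which blocks the membrane attack complex and holds the plasminogen activator inhibitor, was the most abundant of this group. It stood at 1357, 1506 and 1541 CPM in WT and at 1981, 2346 and 2154 CPM in CCR1-KO (log2 fold change 0.56 ± 0.14; edgeR, adjusted p = 0.0604).

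Plg, the precursor of plasmin, was separated at 1625 ± 73.5 CPM in WT and 2069 ± 168 CPM in CCR1-KO (log2 fold change 0.35), as was antithrombin, Serpinc1, at 1446 ± 80.9 and 1689 ± 75.4 CPM (log2 fold change 0.22). Heparin cofactor II (Serpind1) and the plasmin inhibitor (Serpinf2) overlapped, with log2 fold changes of 0.24 and 0.09. Pros1, protein S, the cofactor of protein C, had the lowest log2 fold change of the members, -0.13 ± 0.11, at 65.6 ± 3.72 CPM in WT and 59.8 ± 3.96 CPM in CCR1-KO.

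**Figure D3:**
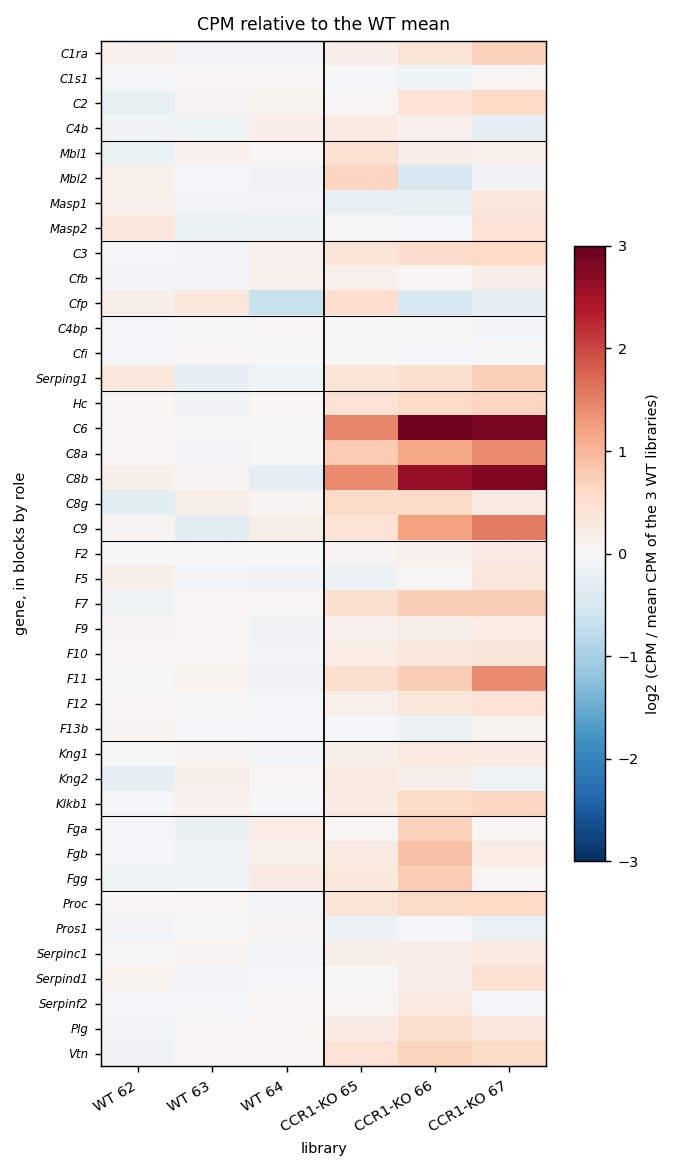
Each member's CPM in each library as log2 of its ratio to the mean of the 3 WT libraries, rows in blocks by role and columns by library. The terminal block holds the strongest colours, in knockouts 66 and 67; C6 and C8b differ from the WT mean there by far more than in knockout 65.

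Compared per length, as FPKM averaged over the 6 livers, the members spanned from 6.29 (Cfp) to 1239 (Fgg). Fgg was followed by C3 at 1022, Fga at 938, Fgb at 825 and Vtn at 806, then Kng1 at 453 and Plg at 452. The neighbouring means of Fga, Fgb and Vtn, and of Kng1 and Plg, lie within the spread over livers. At the low end stood C2 at 20.2, Pros1 at 14.2 and Masp1 at 12.1. The terminal genes lay in the middle and lower part of this order, and in WT C6 had 14.5 ± 0.445 FPKM, C8b 24.9 ± 3.09, C8a 85.5 ± 5.22, C9 86.2 ± 16.7, Hc 101 ± 8.42 and C8g 134 ± 27.9. In CCR1-KO C6 had 65.1 ± 24.0 FPKM, C8b 102 ± 33.4, Hc 119 ± 7.72, C9 148 ± 34.2, C8a 149 ± 11.5 and C8g 151 ± 38.6, a narrower range over these means. Terminal genes made up 12.8% to 13.3% of the FPKM sum of complement members in WT and 16.1%, 22.5% and 22.5% in knockouts 65, 66 and 67. These FPKM values use no TMM factor, so a library's share does not depend on it.

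Ratios of 2 genes within a library are free of the scaling factor as well. Of 12 such FPKM ratios between partners, chosen after the values were seen, 7 were separated between groups. With 3 against 3 livers the exact two-sided permutation test cannot go below p = 0.10, which all 7 had; adjusted over the 12 ratios this is 0.171. Because the pairs were chosen that way, the count and these p-values are descriptions and no test. The share of separated ratios among other gene pairs was not computed. C6 over Hc was 0.142, 0.154 and 0.136 in WT and 0.301, 0.714 and 0.652 in CCR1-KO. C8b over C8a was 0.315, 0.330 and 0.235 in WT and 0.462, 0.803 and 0.759 in CCR1-KO. In both ratios knockout 65 lay between the WT livers and the other knockouts. C9 over Hc and C8g over C8a overlapped.

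Among coagulation pairs, F7 over F10 was 0.255, 0.295 and 0.323 in WT and 0.347, 0.381 and 0.376 in CCR1-KO. Proc over its cofactor Pros1 was 8.86, 8.18 and 7.14 in WT and 11.9, 12.2 and 13.8 in CCR1-KO, with knockout 65 close to the other knockouts. F11 over Klkb1 was also higher in every knockout, and so was Fgb over Fga, at 0.821 ± 0.0380 in WT and 0.941 ± 0.0246 in CCR1-KO. Fgg over Fga, Kng2 over Kng1 and Mbl2 over Mbl1 overlapped. The highest fold was that of C4a over C4b, at 0.0341, 0.0252 and 0.0276 in WT and 0.0531, 0.167 and 0.168 in CCR1-KO. Because C4a and C4b are almost the same in sequence, the assignment of their reads can affect this ratio.

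**Figure D4:**
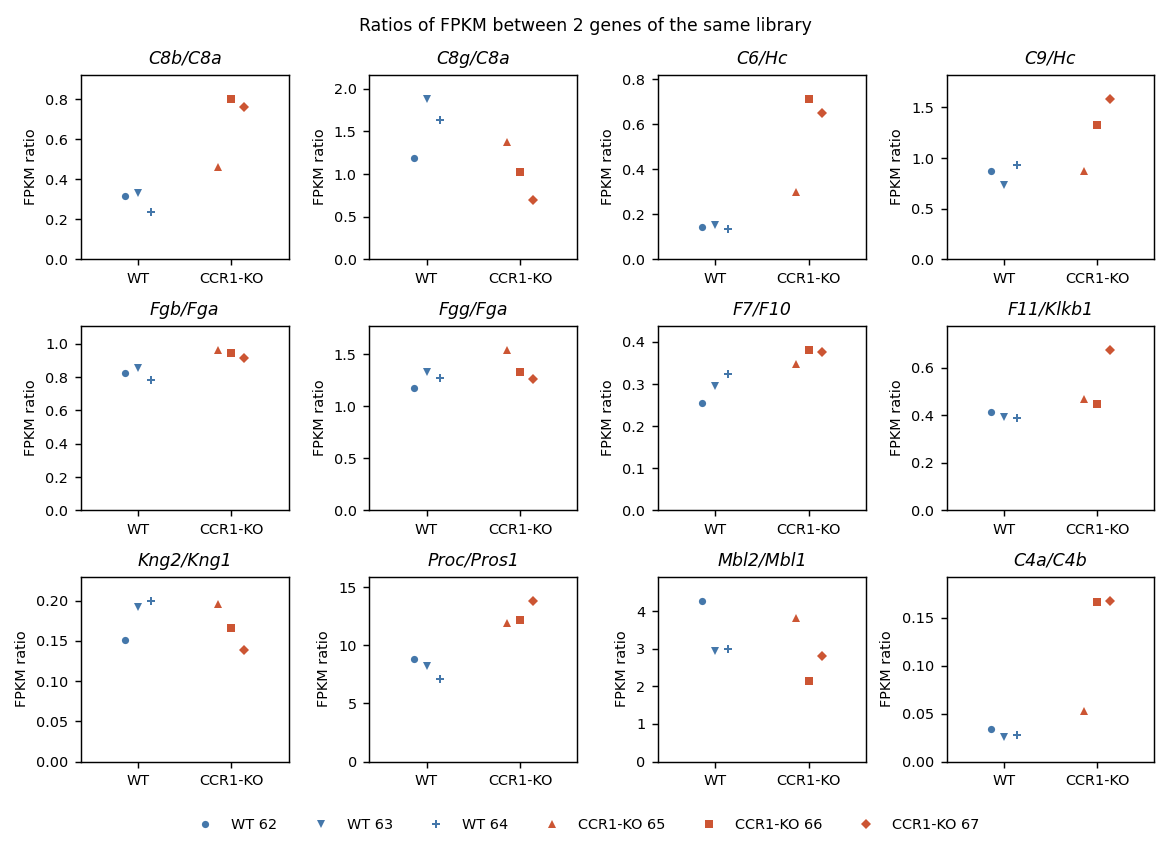
FPKM of 1 gene over that of a partner in the same library, for each liver of WT and CCR1-KO, with axes from 0 and a marker shape per replicate. For C8b over C8a the knockouts lie between 0.462 and 0.803 and the WT livers between 0.235 and 0.330.

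The other genes of these pathways moved both ways. Of 60 listed by function, 58 passed the filter on low counts (F2rl3 and Serpina5 did not). Of these, 3 were called higher and 3 lower, with a median log2 fold change of -0.12. Of all genes tested 2.83% were called higher and 3.61% lower. Without scaling factors the partner counts were 3 higher and 6 lower, with 1.24% and 4.83% of all genes. With any 1 WT library left out 0 partners passed in edgeR. In those fits 6 or 7 were higher and 7 to 9 lower at an unadjusted p under 0.05. The share of all genes at that unadjusted level was not computed for those fits. Among 12 complement components C4a passed upward, at 52.4, 38.5 and 52.9 CPM in WT and 105, 303 and 227 CPM in CCR1-KO (log2 fold change 2.14 ± 0.36; edgeR, adjusted p = 0.0190). Colec11, a lectin that also recruits MASP proteases, passed downward, at 38.0, 41.8 and 43.4 CPM in WT and 30.7, 25.0 and 28.4 CPM in CCR1-KO (log2 fold change -0.55 ± 0.12; edgeR, adjusted p = 0.0408), a call lost in 7 of 13 alternatives. Of 15 complement regulators and receptors 0 passed. The smallest p was that of Cfhr2, a factor H relative, with a log2 fold change of 0.68 ± 0.18 (edgeR, adjusted p = 0.0637). At an unadjusted p under 0.05 in edgeR 2 were higher and 3 lower, where 11.3% and 13.2% of all genes were. DESeq2 called Cfhr2 higher and C3ar1 and Cd93 lower, with 7.55% and 8.73% of all genes called higher and lower. Cd93 was also called lower without scaling factors and by limma on filtered FPKM with a pseudocount of 0.5.

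Genes of clotting and fibrinolysis made mainly outside hepatocytes had a median of -0.58, with 1 higher and 2 lower among 15 tested. Plat and Plau encode the activators that turn plasminogen into plasmin. Both had few reads in CCR1-KO replicates 65, 66 and 67: 25, 15 and 30 for Plat and 108, 33 and 23 for Plau. Plat stood at 1.23, 1.52 and 4.62 CPM in WT and at 0.313, 0.230 and 0.502 CPM in CCR1-KO (log2 fold change -2.82 ± 0.60; edgeR, adjusted p = 0.0369). Its call was lost in 7 of the 11 alternatives that tested it, and without WT replicate 64 its log2 fold change was -1.98. The limma fits on filtered FPKM did not test Plat. Plau stood at 3.38, 3.25 and 4.40 CPM in WT and at 1.35, 0.506 and 0.385 CPM in CCR1-KO (log2 fold change -2.28 ± 0.47; edgeR, adjusted p = 0.0339), with -3.04 without knockout 65 and the call lost in 6 of 13 alternatives. Serpine2, a serpin that inhibits thrombin and both activators, went the other way, at 2.62, 2.77 and 5.41 CPM in WT and 8.34, 28.9 and 55.0 CPM in CCR1-KO (log2 fold change 3.09 ± 0.64; edgeR, adjusted p = 0.0338), with 2.36 without knockout 67 and the call lost in 6 of 13. The 16 coagulation helpers in liver that were tested had a median of 0.14, with 12 above 0 and 4 below. Among them Mug1, a murinoglobulin that traps proteases, was called higher and 0 were lower. It stood at 2438, 2484 and 2286 CPM in WT and at 4652, 6870.0 and 7169 CPM in CCR1-KO (log2 fold change 1.37 ± 0.20; edgeR, adjusted p = 0.0127).

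**Figure D5:**
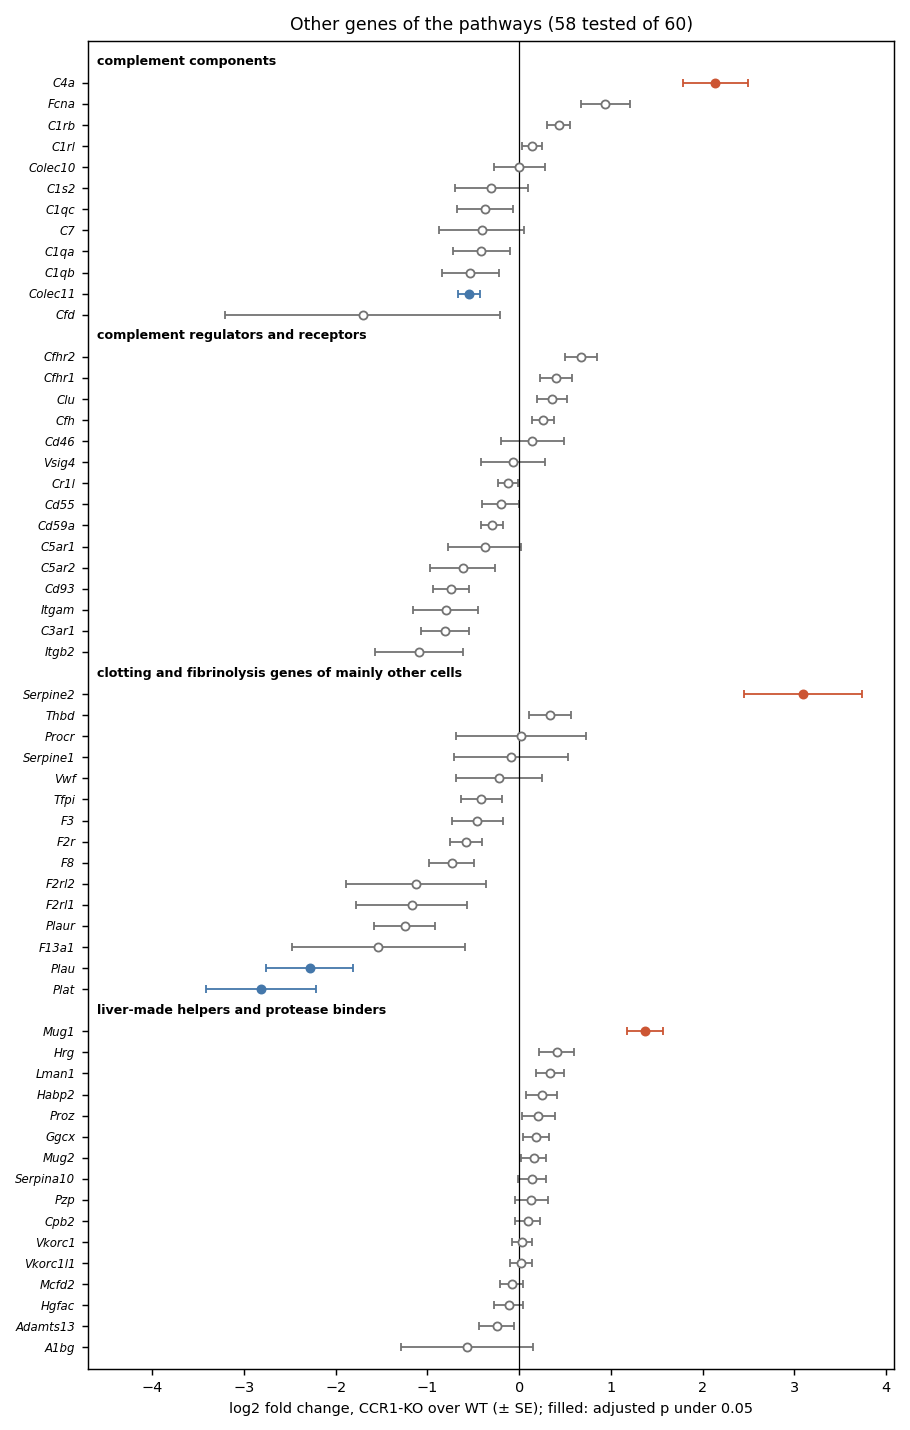
Log2 fold change, CCR1-KO over WT, with SE bars (3 against 3 livers), of the 58 tested pathway genes that are no members, in blocks by function; filled points have an adjusted p under 0.05. Serpine2, C4a and Mug1 are filled on the right and Plat, Plau and Colec11 on the left.

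Acute phase proteins, which hepatocytes make in inflammation together with fibrinogen and several complement factors, gave 1 higher and 0 lower among 16, with a median of -0.06. The 1 was Itih3, a hyaluronan-binding chain, at 709.6, 675 and 774 CPM in WT and 1179.6, 1330.5 and 976 CPM in CCR1-KO (log2 fold change 0.69 ± 0.16; edgeR, adjusted p = 0.0438), and its call was lost in 9 of 13 alternatives.

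Cell type markers moved with the groups in part. Of 9 hepatocyte markers tested 3 were higher (Serpina1a, Cps1 and Ass1, with log2 fold changes of 1.11, 1.37 and 1.09) and 0 lower; Tf was not matched, and Alb had -0.16. Of 8 stellate cell and fibroblast markers 6 were lower, summing to 403 to 931 CPM in WT and 196 to 215 CPM in CCR1-KO, and of 5 bile duct markers Spp1 was lower, with the list at 118 to 190 CPM in WT and 42.2 to 49.0 CPM in CCR1-KO. Macrophage markers overlapped, at 211 to 269 CPM in WT and 304, 142 and 157 CPM in CCR1-KO replicates 65, 66 and 67. Endothelial markers did so too, at 122 to 175 CPM in WT and 154, 113 and 116 CPM in the same knockouts. In both lists knockouts 66 and 67 lay below every WT liver and knockout 65 did not. Lymphocyte, neutrophil and platelet and red cell lists had 0 calls, with S100a8, S100a9, Ly6g, Cxcr2, Ppbp and Gp9 at 0 reads in at least 1 library. The part of these markers in the results for complement and coagulation genes was not tested.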

How the data were processed

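The members and gene lists were chosen with earlier results of these data known. Per the file headers, the columns hold whole-number read counts and FPKM values; the deposited counts entered the test unchanged. FPKM as deposited tracked those counts up to a gene and a library factor (SD of the log2 ratio at most 0.000968 over 3308 genes with at least 2000 reads). Per the submitters' processing notes, the tools included HISAT2 2.2.1, cutadapt 1.9, edgeR, DESeq2 and StringTie 2.1.6. The notes list GRCh38, but the identifiers are of mouse: 27839 of 27912 were found in GENCODE M21 (GRCm38) and 25059 had the same start, end and strand, so coordinates are given as GRCm38. The sources used here do not give whether counting used strand or how it treated multiply matching reads. Values of near-identical copies (C4a and C4b, C1ra and C1rb, C1s1 and C1s2, Kng1 and Kng2, Mug1 and Mug2, the Cfhr genes) and of C2 and Cfb, 85 bases apart, are therefore uncertain.

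Per the labels' protocols, polyadenylated RNA was sequenced as pairs. Of 12 samples, 6 were used. Replicates differed by more than sampling noise (chi-square per degree of freedom at least 68.7). Genes were kept by filterByExpr (minimum count 10, total 15) in edgeR 4.0.16 (R 4.3.3), scaled by TMM and tested by quasi-likelihood; p-values were adjusted by Benjamini-Hochberg over all 17729 genes, threshold 0.05. Each SE was taken from the fold change and its F statistic (size of the log2 value divided by the root of F). The labels do not say how animals were housed or bred, so p-values measure the spread between these samples. Genes given in every library are Ccr1, members that passed and, in each role, the member of highest mean FPKM and that of smallest p. Partner and acute phase genes were named where they passed or, where none did, by smallest p. F10, C7, C9, Hc, F11 and the values of single hepatocyte markers were added after their values were seen, as was the count with library totals only. Alternatives were median-ratio factors, no scaling factors, no count filter, DESeq2 1.42.0, limma 3.58.1 on log2(FPKM + 0.5) for genes of FPKM at least 0.5 in 3 libraries, a pseudocount of 0.1, no FPKM filter, and each of 6 libraries left out. On simulated counts (17221 genes, CCR1-KO against WT) edgeR recovered 17% of 100 genes changed 2-fold and 60% of 100 changed 4-fold, with 4 false calls among 81. DESeq2 recovered 44% and 83%, with 57 false calls among 184, and limma 19% and 60%, with 2 among 81. Only 200 genes were changed there, while edgeR called 6.44% of genes in the data, so these shares need not carry over.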

Additional observations from a re-analysis of the deposited data

How the results depend on the processing

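Members called higher numbered 4 in the edgeR fit, 5 with median-ratio factors, 3 without scaling factors, 4 without the count filter, 3 in each limma fit on FPKM and 14 with DESeq2. Members called lower numbered 0 in all of these. On simulated counts, where 200 of 17221 genes were changed, DESeq2 had 57 false calls among 184. That share need not hold for these data, where DESeq2 called 7.55% of genes higher and 8.73% lower. With 1 library left out the members called higher ranged from 0 (each WT library) to 11 (CCR1-KO replicate 65). Partners called higher or lower numbered 3 and 3, against 6 and 8 with DESeq2, 0 and 1 with limma without the FPKM filter, and 3 and 6 without scaling factors; with 1 library left out they ranged from 0 to 5 higher and from 0 to 8 lower. With library totals only, chosen after seeing the data, members separated upward fell from 23 to 9 and members separated downward rose from 0 to 4. Without scaling factors and with limma on FPKM all genes shift downward together (median -0.30 and, on filtered FPKM, -0.23 and -0.27), and 14 members with small log2 fold changes turned sign. Of those given in every library, the values were, without scaling factors and with limma at pseudocounts of 0.5 and 0.1 (the first with and without the FPKM filter): C4b (-0.23; -0.28 and -0.28), F2 (-0.16; -0.16 and -0.16), Kng1 (-0.054; -0.061 and -0.061), Mbl1 (-0.0096; -0.033 and -0.033) and Mbl2 (-0.14; -0.28 and -0.28). With 1 library left out C4b ranged from -0.068 to 0.18, below 0 when WT replicate 62 or 63 or knockout 65 was the one removed, and Mbl2 from -0.27 (knockout 65 removed) to 0.32. Ccr1 passed without scaling factors (adjusted p = 0.0498) and with DESeq2 (adjusted p = 0.00651). The members' median lay above that of all genes by 0.25 to 0.37 in all edgeR and DESeq2 fits, by 0.20 and 0.24 with limma on filtered FPKM and by 0.033 with limma without the FPKM filter; the cause of the changes in counts was not tested. No paired analysis was possible because the 2 groups share no replicate number. The biological coefficient of variation was 0.302 with 3 livers a group. At this depth and sample size edgeR recovered 17% of 2-fold changes in a simulation with 200 changed genes.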

Other observations

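Among the pathway partners, chosen here after their values were seen, the genes of C1q, the antibody sensor of the classical route made by macrophages, and of factor D (Cfd), the adipsin that cuts factor B, set knockout 65 apart from the other knockouts. C1qb stood at 34.5, 32.7 and 31.5 CPM in WT and at 36.3, 16.1 and 15.8 CPM in CCR1-KO replicates 65, 66 and 67 (log2 fold change -0.53 ± 0.31; edgeR, adjusted p = 0.332). In C1qa and C1qc too, knockout 65 was the highest of the 6 libraries and knockouts 66 and 67 were the lowest. Cfd had 1352, 2027 and 865 reads in WT and 1185, 7 and 0 reads in CCR1-KO. Without knockout 65, C1qa, C1qb, C1qc and Cfd were all called lower, in a fit that called 7.67% of all genes lower. Because these genes were picked for the distance of knockout 65, the calls without it are no separate test.

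The genes around those that passed were also read. Within 1 Mb on each side of C8b and C8a, 4 other genes were tested, and Fyb2, an adaptor protein gene, was lower (log2 fold change -1.26; edgeR, adjusted p = 0.0495). Within 1 Mb of the stretch from C6 to C9, 19 others were tested and Lifr, a receptor subunit for leukaemia inhibitory factor, was higher. Lifr stood at 70.8 ± 4.94 CPM in WT (SD, n = 3) and at 155, 360.2 and 535 CPM in CCR1-KO (log2 fold change 2.31 ± 0.39; edgeR, adjusted p = 0.0195). Within 1 Mb of F7 and F10, 24 others were tested. Atp11a was higher and Gas6 and Tdrp were lower. Of all genes tested, 6.44% were called in either direction. The median log2 fold change of the other genes was -0.16 around C8b and C8a, -0.02 around C6 to C9 and -0.05 around F7 and F10. Gas6, a vitamin K-dependent relative of protein S that activates TAM receptors, stood at 75.6, 68.8 and 102 CPM in WT and at 24.7 ± 7.78 CPM in CCR1-KO (SD, n = 3; log2 fold change -1.73 ± 0.25; edgeR, adjusted p = 0.0127).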
